A study of Mus musculus with 4 samples.

Results

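The proteasome subunit genes were examined in ATAC-seq peak lists from 4 mouse skeletal muscles. Members were all peaks whose nearest gene carried a name starting with Psma, Psmb, Psmc, Psmd, Psme, Psmf or Psmg followed by a digit. This gave 271 of the 120839 peaks in the lists, 70 in EDL and 76 in Quad, with 60 in Sol and 65 in Dia, under 46 gene names. One of these names, Psmc3ip, belongs to a meiotic recombination factor and not to the proteasome, and it was counted apart. The RefSeq annotation of the same genome build, mm10 (GRCm38), holds 49 proteasome genes under these prefixes, of which 45 had at least 1 peak. The other 4, Psma8, Psmb11, Psmd13 and Psme2b, had no peak under their names in any list.

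ATAC-seq marks accessible DNA through the insertions of the Tn5 transposase. The glycolytic, fast-twitch limb muscles were represented by the extensor digitorum longus (EDL) and the quadriceps (Quad), oxidative, slow-twitch muscle by the soleus (Sol), and breathing muscle by the diaphragm (Dia). All came from wild type C57BL/6 mice kept sedentary. The methods describe males of the J substrain, bought as young adults, and the labels give no age at harvest. The labels call each library pooled, and there was 1 library per muscle, so muscle and library cannot be told apart and no difference between muscles was tested. Whole muscle contains vessels, connective tissue and blood cells beside myofibers. Of 8 skeletal muscle markers, 6 had a promoter peak in EDL and 6 in Quad, against 5 in Sol and 4 in Dia. Of 5 endothelial markers, 4, 5, 4 and 2 had one, in the same order. Of 8 leukocyte markers 1, Tyrobp, had a promoter peak, in Quad alone, and all the others had no promoter peak in any list. Inferred depth ran from 78.1 to 105 M tags per library (M, mega), and the lowest-scored peak of a list held 25 to 36 tags.

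The proteasome degrades proteins that carry ubiquitin chains. Its 20S core is a barrel of alpha and beta subunits, of which the beta subunits hold the proteolytic sites, and its 19S cap recognizes, unfolds and feeds in the substrate through a ring of ATPases (Psmc) and a set of other subunits (Psmd). Immunoproteasome beta subunits replace the standard ones after interferon signalling, activators (Psme) can take the place of the cap, and dedicated chaperones (Psmg and some Psmd) build the particle. In muscle the ubiquitin-proteasome system is best known for the breakdown of myofibrillar proteins during atrophy. Nfe2l1 and Nfe2l2 are transcription factors that raise proteasome genes through antioxidant response elements.

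Sequences from the promoters are shown first, since they carry the binding letters on which part of the description turns. RefSeq promoter windows, from 250 bases before to 50 bases after the transcription start on GRCm38.p6, were found for 41 of the 49 genes and not for Psma8, Psmb1, Psmb2, Psmb7, Psmc3, Psmd3, Psmd7 and Psmg2. The antioxidant response element was searched as TGACNNNGC on both strands, and 6 of the 41 promoters held it. These 6 sites are shown 5′ to 3′ on the strand that reads the motif, whose 9 letters are in capitals.
Psmb6 (chr11:70525338-70525366, plus strand): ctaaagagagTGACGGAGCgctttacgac
Psmc6 (chr14:45329587-45329615, minus strand): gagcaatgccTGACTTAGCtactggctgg
Psmd12 (chr11:107479278-107479299, minus strand): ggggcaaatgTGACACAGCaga
Psme4 (chr11:30771758-30771786, minus strand): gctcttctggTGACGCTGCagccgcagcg
Psmb5 (chr14:54618024-54618052, minus strand): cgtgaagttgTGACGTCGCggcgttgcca
Psmd9 (chr5:123228149-123228177, plus strand): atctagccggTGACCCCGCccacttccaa

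The ETS letters CCGGAA are shown, with the letters in capitals, for the 6 genes with the highest mean promoter percentile among those that held them. This set was added because its share was higher than that of all promoters.
Psmd4 (chr3:95042724-95042749, minus strand): tacagctgttCCGGAAgctgctgcga
Psmd11 (chr11:80428609-80428634, minus strand): gccgccgacgCCGGAAacacacaccc
Psma6 (chr12:55398813-55398838, plus strand): cgccggtgctCCGGAAgcagtagcca
Psmc6 (chr14:45329714-45329739, plus strand): ggcgggccagCCGGAAggggcggagc
Psma2 (chr13:14613253-14613278, minus strand): ccatctttacCCGGAAagtcggaaca
Psmd12 (chr11:107479502-107479527, minus strand): gtcactcgcaCCGGAAgtcgcccgct

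Most proteasome genes had an accessible promoter in every muscle. Here a promoter peak is one that the authors' annotation places from 1 kb upstream to 100 bp downstream of the gene's transcription start (promoter-TSS). In EDL 36 of the 49 genes had one (73.5%, 95% Wilson interval 59.7 to 83.8), against 38.6% of 21887 protein-coding genes. The count was also 36 in Quad, where 42.3% of all genes had one, and 36 in Sol, where 38.4% had one. In Dia it was 38 (77.6%, 64.1 to 87.0), against 37.8%. In all 4 lists together 31 genes had a promoter peak (63.3%, 49.3 to 75.3), against 30.8% of all genes. Another 4 had one in 3 lists, 4 in 2 lists and 2 in 1 list, and 8 had none in any list (16.3%, 8.51 to 29.0), against 52.2% of all genes. The intervals cover counting error only.

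For most of the genes without a promoter peak under their own name, a peak lay at the start all the same and was annotated otherwise. When any peak overlapping the same window around a RefSeq start was accepted, whatever gene or class it carried, 44 of 49 genes had one in EDL (89.8%, 78.2 to 95.6; all genes 46.5%), 44 in Quad (all genes 50.5%), 43 in Sol (87.8%, 75.8 to 94.3; all genes 46.6%) and 44 in Dia (all genes 46.1%). By this rule 42 genes had an open start in all 4 muscles (85.7%, 73.3 to 92.9), against 40.6% of all genes. Only Psma8, Psmb10, Psmb11 and Psme2b had none in any list (8.16%, 3.22 to 19.2), against 45.7%. Psma8 is the alpha subunit of the testis, Psmb11 is the beta subunit of thymic cortical epithelium, Psme2b is a copy of Psme2, and Psmb10 belongs to the immunoproteasome. Psmd9 and Psme1 were open by this rule in 3 lists, and Psmg4 in 1.

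**Figure D1:**
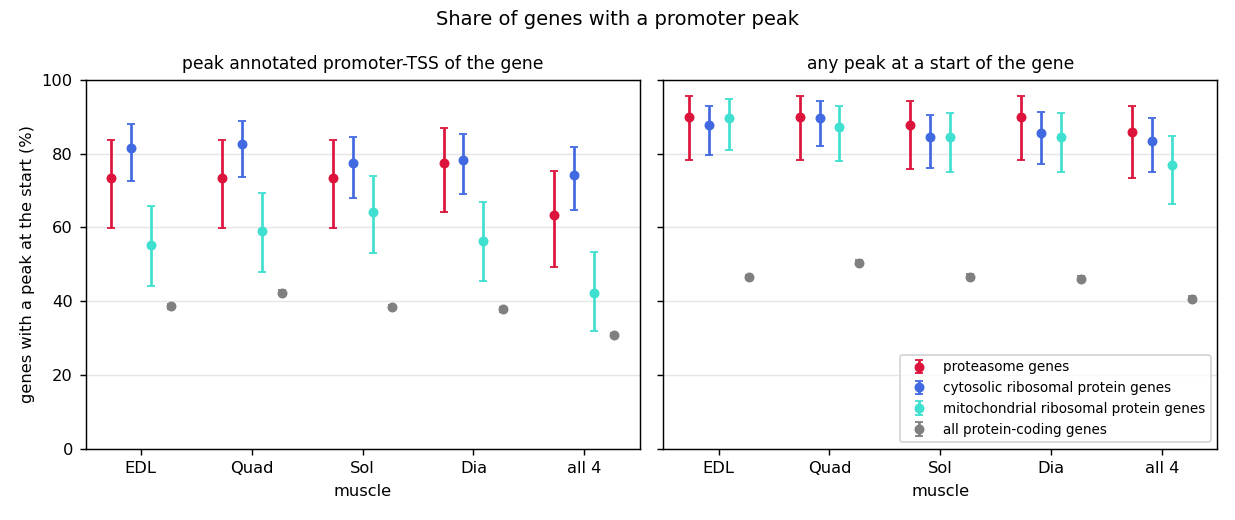
Share of genes with a promoter peak, in percent, in each muscle and in all 4 lists, for 49 proteasome genes, 97 cytosolic and 78 mitochondrial ribosomal protein genes and all protein-coding genes, by the authors' annotation (left) and by any peak at a RefSeq start (right). Points are shares and bars are 95% Wilson intervals; by annotation the proteasome share in all 4 lists is 63.3% and by position it is 85.7%, both above all genes.

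The reassigned peaks fell into distinct kinds. One kind was the bidirectional promoter: 10 of the 49 genes (20.4%, 11.5 to 33.6) had the start of a gene on the opposite strand within the promoter window, against 8.99% of 21000 genes. In 7 of the 10 the partner took the peak in at least 1 list, while Psma2, Psma4 and Psme2 kept theirs in all 4. The pairs were Psma2 with Mrpl32, Psma4 with AY074887, Psma7 with Ss18l1, Psmb9 with Tap1, Psmc2 with Dnajc2, Psmc5 with Ftsj3, Psmd10 with Atg4a, Psmd13 with Sirt3, Psme2 with Rnf31 and Psmg2 with Cep76. The starts lay 19 bp apart in Psma7 and Ss18l1 and 641 bp apart in Psme2 and Rnf31, and the Psma4 and AY074887 genes overlapped by 95 bp at their starts. For Psmd13, a lid subunit of the cap, the peak at the start was called in all 4 lists and each time given to Sirt3, with score percentiles of 64.5 in EDL and 84.0 in Quad, with 68.6 in Sol and 72.5 in Dia. Psmg2, an assembly chaperone, likewise lost its peak to Cep76 in all 4 lists, at percentiles of 73.9, 78.9, 56.1 and 54.2. Psmd10, which helps to assemble the base of the cap, kept the peak in Dia and lost it to the autophagy protease gene Atg4a in the other 3 lists. Tap1, the partner of the immunoproteasome gene Psmb9, encodes a peptide transporter of antigen presentation and took the peak in EDL alone. Which gene of such a pair an open region serves cannot be read from a nearest-start annotation.

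In other genes the peak lay downstream of the start, or upstream of it when a different start was used. Psma5, an alpha subunit, had its peak in the 5′ UTR in all 4 lists, with the centre 135 to 162 bp downstream of the start. The Psma5 peak was among the strongest of the family, at percentiles of 96.4 in EDL and 96.1 in Quad, with 92.0 in Sol and 93.8 in Dia. For Psmc1, an ATPase, peaks at the RefSeq start were annotated as intergenic, 2142 to 2304 bp upstream of the start used by the authors, with percentiles of 27.1, 52.1, 24.8 and 38.1. Psmg1, another chaperone, had its peak in exon 1 in Quad and Dia, 110 and 143 bp downstream. Psmf1, the proteasome inhibitor PI31, had it in the 5′ UTR in EDL, 147 bp downstream, and Psmd9 in the 5′ UTR in Dia, 102 bp downstream. For Psmg4 the promoter region chr13:34162879-34163301 was open in all 4 lists at percentiles of 85.7, 85.6, 84.8 and 78.0, and the peak fell within the promoter window only in EDL. Among genes with a peak at the start in some list, the position rule left gaps in Psmd9, Psme1 and Psmg4. Psmd9 lacked a peak in Sol, where nothing was called, Psme1 in EDL and Psmg4 in all but EDL. That rule accepts any peak in the window. Of 43 promoter regions merged over the lists, Psmc3ip included, 5 were called in 3 lists (11.6%, all promoter regions 10.6%). Those of Psma7, Psmb5, Psmc2 and Psmd9 were not called in Sol, and that of Psme1 was not called in EDL.

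**Figure D2:**
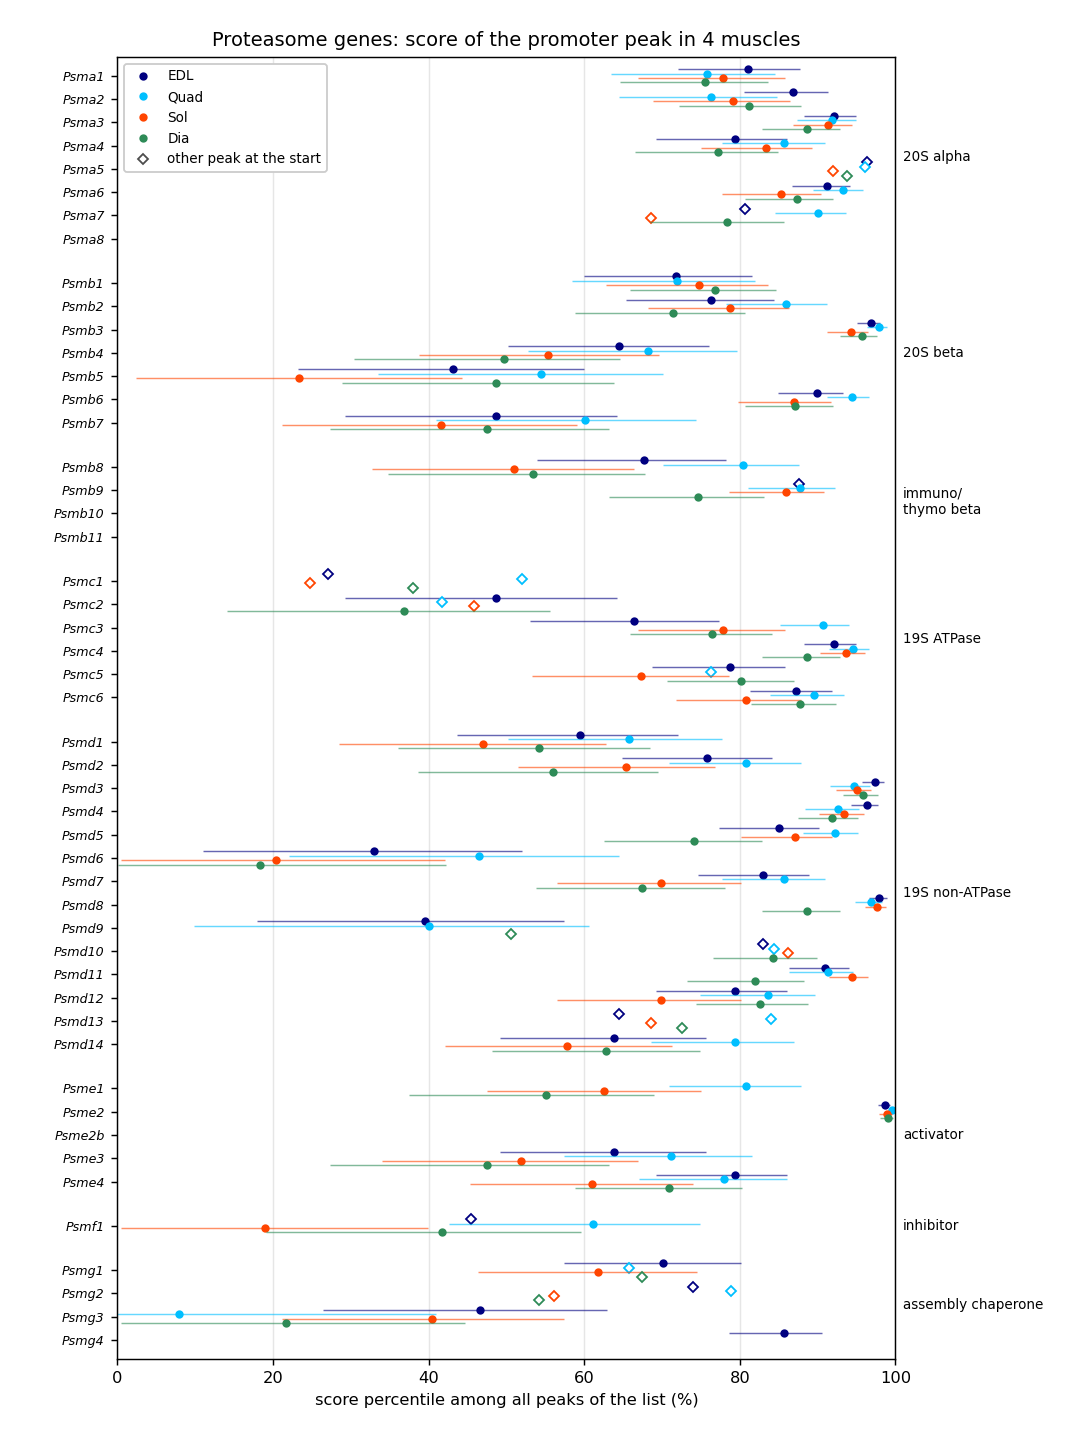
Score percentile, among all peaks of the same list, of the best promoter peak of each of the 49 proteasome genes in EDL, Quad, Sol and Dia, grouped by role. Filled circles are promoter-TSS peaks with 95% counting intervals, and open diamonds are peaks at the start that the annotation gave to another class or gene; Psme2 lies above 98 in all 4 lists and Psma8, Psmb10, Psmb11 and Psme2b have no mark.

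Strength was described by the score percentile, because peak widths and thresholds differed between lists. It is the rank of a peak's score (the authors' tag count scaled by library size) among all peaks of its own list. The percentile depends in turn on how many peaks a list holds, from 21582 in Dia to 40337 in Quad. The median over proteasome genes with a promoter peak was 79.4 in EDL and 84.6 in Quad, with 76.3 in Sol and 76.0 in Dia. Over all genes with a promoter peak it was 77.1, 82.1, 76.6 and 74.6. When ranked among promoter peaks alone, the medians of the proteasome genes were 55.0, 56.6, 50.8 and 53.3, close to the middle. A promoter peak was thus called for a larger share of proteasome genes than of all genes, and the peaks that were called had median scores near that of all promoter peaks. The quartiles were 64.4 and 90.1 in EDL and 54.5 and 86.4 in Dia, so the family spread over much of the range.

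Of the 8 core alpha subunit genes 5 had a promoter peak in all 4 lists, and 7 had an open start in all 4 by position. Psma8 was the exception. Psma3 had percentiles of 92.1 in EDL and 91.8 in Quad, with 91.4 in Sol and 88.6 in Dia, a range of 3.49 points. No alpha subunit with a promoter-TSS peak fell below 75.5 in any list. Psma7 had one in Quad, at 90.1, and in Dia, at 78.4. In EDL its peak was given to Ss18l1, at 80.7, and in Sol the peak given to Ss18l1, at 68.6, lay 257 bp into that gene.

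The standard core beta subunits had a promoter peak in all 7 genes in all 4 lists, and they covered a wide range of strengths. Psmb3, a structural beta subunit, was among the 4 highest of the 31 genes with a promoter peak in every list, at 96.9 in EDL and 97.9 in Quad, with 94.3 in Sol and 95.7 in Dia. Psmb6, the caspase-like catalytic subunit, stood at 89.9, 94.4, 86.9 and 87.1. Psmb7, the trypsin-like catalytic subunit, was far lower at 48.7, 60.1, 41.6 and 47.6, and it was among the 4 lowest of the 31 genes with a promoter peak in every list. Of these catalytic subunits Psmb5, with the chymotrypsin-like site, had the lowest mean percentile, at 43.2 in EDL and 54.5 in Quad, with 23.4 in Sol and 48.7 in Dia. The Sol value of Psmb5 came from a different place: in EDL, Quad and Dia the peak centre lay 27 to 34 bp upstream of the start, and in Sol the only promoter peak, chr14:54618190-54618396, lay 298 bp upstream. No peak was called in Sol at the proximal Psmb5 site, which held 66 tags in EDL, 55 in Quad and 73 in Dia. This proximal site contains the antioxidant response element of Psmb5 shown above.

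The immunoproteasome subunits differed among themselves. Psmb8, the inducible counterpart of Psmb5, had a promoter peak in all 4 lists, at percentiles of 67.8 in EDL and 80.4 in Quad, with 51.0 in Sol and 53.4 in Dia. Its peaks lay 484 to 577 bp upstream of the start, farther than those of any other member. Psmb9, the counterpart of Psmb6, stood at 87.7 in Quad, 85.9 in Sol and 74.6 in Dia, and the peak in EDL, at 87.6, was given to Tap1. Psmb10, the counterpart of Psmb7, had no peak at its start in any list, and instead an intronic peak 1365 bp downstream, chr8:105936924-105937187, at 79.4, 83.6, 84.5 and 71.4. Leukocytes express these subunits constitutively. The 8 leukocyte markers had 6 peaks of any class in EDL, 9 in Quad, and 4 each in Sol and Dia. Among them 1, Tyrobp, had a promoter peak, in Quad alone at percentile 30.2, and their part in the immunoproteasome peaks was not tested.

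In the cap, all 6 ATPase genes had an open start in all 4 lists by position, and 3 of them, Psmc3, Psmc4 and Psmc6, had a promoter-TSS peak in all 4. Psmc4 was the highest, at 92.1 in EDL and 94.5 in Quad, with 93.7 in Sol and 88.6 in Dia. Psmc3 ran from 66.4 in EDL to 90.6 in Quad, a range of 24.2 points, and the EDL and Quad counting intervals did not overlap. Psmc5 had 78.8 in EDL, 67.3 in Sol and 80.1 in Dia, and in Quad its peak, at 76.4, was given to Ftsj3. Psmc2 was weak, at 48.7 in EDL and 36.8 in Dia. In Quad the Psmc2 peak at the start was given to Dnajc2, at 41.8, and in Sol only a peak in exon sequence at another Psmc2 start was present, at 45.9. That second site, chr5:21786581-21786821, was open in all 4 lists.

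Of the 14 non-ATPase genes 11 had a promoter peak in all 4 lists, and 13 had an open start in all 4 by position. Psmd3, a lid subunit, stood at 97.4 in EDL and 94.6 in Quad, with 95.1 in Sol and 95.9 in Dia. Psmd8, also of the lid, was at 97.9, 96.8 and 97.7 in EDL, Quad and Sol and at 88.6 in Dia. The Dia value of Psmd8 was the lowest, and its counting interval lay below those of the other lists. Psmd6, another lid subunit, was at the other end of the range, at 33.0, 46.5, 20.5 and 18.4. Psmd2, a scaffold of the base, had 80.8 in Quad and 75.8 in EDL, with 65.3 in Sol and 56.0 in Dia. Psmd9, a base chaperone, was weak where present, at 39.6 in EDL and 40.0 in Quad.

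The activators held the strongest promoter of the family. Psme2, the beta subunit of the interferon-inducible activator PA28, reached 98.7 in EDL and 99.6 in Quad, with 98.9 in Sol and 99.0 in Dia. This was the smallest range of the 31 genes with a promoter peak in every list, 0.88 points, and the peaks held 263 to 287 tags. Percentiles lie close together at the top of a list, and the range in scores was not the smallest. Psme2 scores ran from 27.4 in Sol to 33.7 in Quad, and those of Psma3 from 15.6 in Dia to 16.8 in EDL. In Quad the Psme2 peak was chr14:55590978-55591166, centred 29 bp downstream of the start. Psme1, which encodes the alpha subunit of the same activator, was lower at 80.8 in Quad, 62.5 in Sol and 55.1 in Dia, and no peak was called for it in EDL. Psme3, the nuclear activator, had 63.9, 71.2, 51.9 and 47.6 in EDL, Quad, Sol and Dia. Psme4, which encodes PA200, had 79.4, 77.9, 61.0 and 70.9.

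Of the inhibitor and the 4 chaperone genes, 1, Psmg3, had a promoter-TSS peak in every list. Psmf1 had promoter-TSS peaks at 61.1 in Quad, 19.01 in Sol and 41.7 in Dia. Psmg3 had the widest range of the 31 genes with a peak in every list, 46.6 in EDL and 7.89 in Quad, with 40.5 in Sol and 21.7 in Dia. These Psmg3 peaks held only 32 to 69 tags, and the counting interval ran from 0 to 40.9 in Quad and from 26.4 to 62.9 in EDL. The intervals overlapped, which does not show whether the 38.7 points between them were counting error alone. Psmg1 had promoter-TSS peaks at 70.2 in EDL and 61.8 in Sol, and Psmg4 at 85.7 in EDL.

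Levels were next compared between muscles. The 31 genes with a promoter peak in every list had a median percentile range of 13.7 points (0.88 to 38.7), against 12.2 over 6752 genes. The highest and the lowest list had counting intervals that did not overlap in 6 of the 31 (19.4%), against 33.4% of all genes. These were Psmb8, Psmc3, Psmd2, Psmd5, Psmd8 and Psmd11. The widest ranges were those of Psmg3 (38.7), Psmb5 (31.1), Psmb8 (29.4), Psmd6 (28.2), Psmd2 (24.8) and Psmc3 (24.2), so the low-scored Psmg3, Psmb5 and Psmd6 ranged widely within overlapping intervals. Psmd5 ran from 74.1 in Dia to 92.3 in Quad, and Psmd11 from 81.9 in Dia to 94.4 in Sol. In all 6 except Psmb8 and Psmc3, the lowest list was Dia, which was also the lowest in 46.0% of all genes under this ranking. Psmb8 was lowest in Sol and Psmc3 in EDL. Over the 31 genes Dia was lowest in 14. In the 20000 highest-scored peaks of each list Dia was lowest in 4 of 28 proteasome genes, against 15.2% of all genes. Quad was highest in 21 of the 31 genes (all genes 64.7%), and in the 20000 highest-scored peaks in 7 of 28 (all genes 25.1%). Of the 6 genes, Quad was the highest list in Psmb8, Psmc3, Psmd2 and Psmd5. How often Dia was lowest or Quad highest thus changed with the number of peaks ranked. This was not examined for the 6 genes alone. The Poisson intervals on inferred tags do not include variation between animals or libraries.

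The peaks themselves were at the same places. Among genes with a promoter peak in both lists of a pair, the best peaks of EDL overlapped those of Quad in 32 of 32 genes, of Dia in 33 of 33 and of Sol in 32 of 33. Those of Quad overlapped the peaks of Sol in 33 of 34 genes and of Dia in 34 of 35, and Sol and Dia overlapped in 34 of 35. Over all genes 95.2% to 96.5% overlapped, so the family was near the general share. The median distance between the centres was 17 to 36 bp, against 26 to 31 bp over all genes. The 3 pairs that involve Sol each missed Psmb5, and Quad and Dia missed Psmb3, whose centres lay 212 bp apart. Spearman's rho across the genes of a pair, which are not independent replicates and share each library's depth, was 0.91 between EDL and Quad, 0.94 between EDL and Dia and 0.95 between EDL and Sol. It was 0.93 between Quad and Sol, 0.92 between Sol and Dia and lowest, 0.88, between Quad and Dia. Over all genes rho was 0.91 to 0.92 in every pair.

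The order of the muscles was compared gene by gene. Of the 33 proteasome genes with a promoter peak in both EDL and Sol, 25 (75.8%) had the higher percentile in EDL, against 50.3% of 7560 genes. The median difference, EDL minus Sol, was 6.08 points for the proteasome genes and 0.02 for all genes. Ranked among promoter peaks alone, 25 of the 33 were again higher in EDL (all genes 49.5%), and with each list cut to its 20000 highest-scored peaks 23 of 31 were (all genes 47.5%). In no single gene did the EDL counting interval lie above that of Sol (0 of 33, all genes 2.35%). Among the 28 genes present in all 4 shortened lists, Sol gave the lowest value in 14, against 26.6% of all genes. With 1 library per muscle this difference has no replicate check. EDL exceeded Dia in 26 of 33 genes among all peaks (78.8%, all genes 62.6%) and in 16 of 32 in the shortened lists (all genes 33.9%). Quad exceeded Sol in 26 of 34 genes among all peaks (all genes 79.8%) and 19 of 30 in shortened lists (all genes 53.1%). EDL exceeded Quad in 8 of 32 genes among all peaks (all genes 22.1%) and 19 of 29 in shortened lists (all genes 45.8%). Quad exceeded Dia in 31 of 35 among all peaks (all genes 85.9%) and 16 of 33 in shortened lists (all genes 39.5%). Sol exceeded Dia in 18 of 35 among all peaks (all genes 62.4%) and 7 of 32 in shortened lists (all genes 34.9%).

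**Figure D3:**
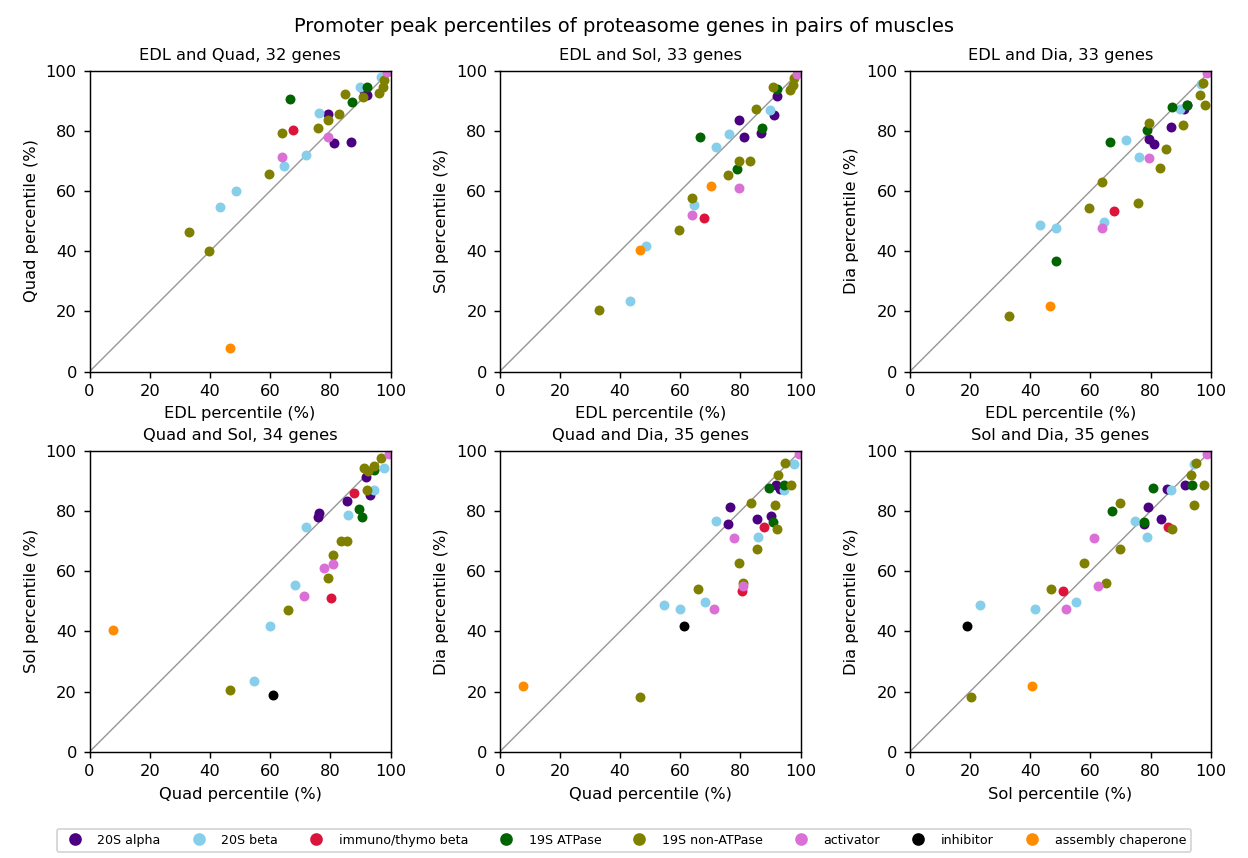
Score percentile of the best promoter peak of each proteasome gene in 2 muscles, for the 6 pairs of muscles, with both axes in percent, points coloured by role and the diagonal marking equal values. In the panel of EDL and Sol 25 of the 33 points lie below the diagonal, on the EDL side.

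Promoter peaks of the family sat close to the start. The median distance of the peak centre was 34 bp upstream in Dia, 39 bp in Quad, 47 bp in EDL and 59.5 bp in Sol, against 49 to 54 bp over all genes. Between 75.0% (Sol) and 80.6% (Quad) of the centres lay within 100 bp of the start, against 68.9% to 70.0% of all genes. Psmb8, described above, lay farthest upstream. Psmd3 lay 158 bp upstream in EDL and Quad, and 232 bp in Dia and 242 bp in Sol, and Psmb3 ran from 56 bp in Quad to 268 bp in Dia.

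**Figure D4:**
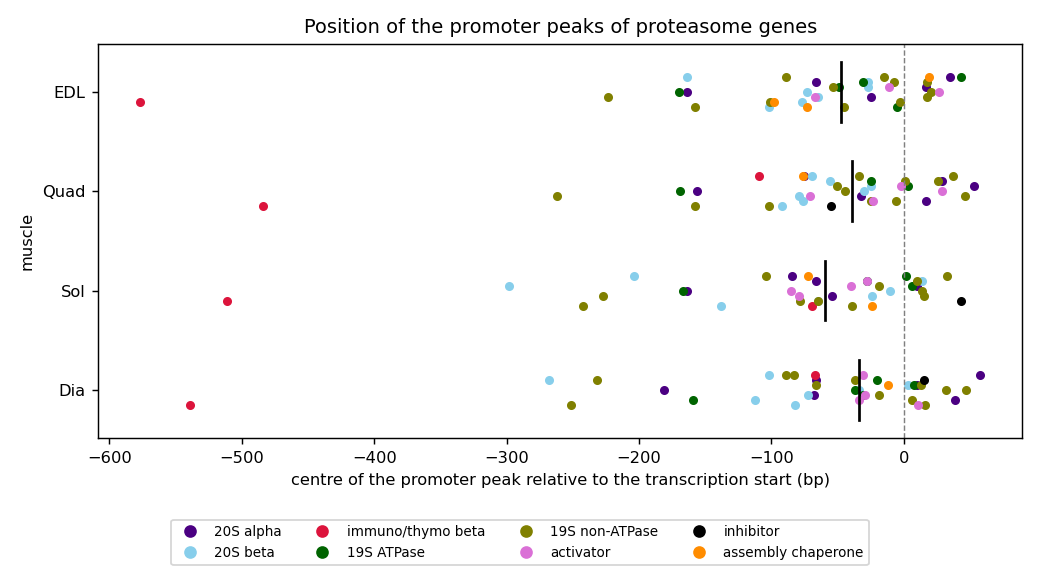
Distance in bp of the centre of the best promoter peak from the transcription start for each proteasome gene with a promoter-TSS peak, in each muscle, with negative values upstream, points coloured by role and the black line at the median. Most points lie within 100 bp of the start, and the isolated points between 484 and 577 bp upstream are Psmb8.

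Merged over the lists by any overlap, the member peaks, Psmc3ip included, formed 101 regions, of which 48 were called in all 4 lists (47.5%, all regions 26.9%). Sharing was more frequent in the promoters: 37 of 43 promoter regions were in all 4 lists (86.0%, all promoter regions 66.1%), but only 11 of 58 other regions were (18.97%, all other regions 16.0%). Of these 11, those of Psma5, Psmc1 and Psmc2 lay at a RefSeq start, as described above. Among regions away from every RefSeq start 8 of 54 were in all 4 lists (14.8%, all such regions 15.6%), about as often as any others. Nearest-gene assignment does not show that such a region acts on the gene. The 11 shared regions were assigned to Psma3, Psma5, Psma6, Psmb7, Psmb10, Psmc1, Psmc2, Psmd1, Psmd6, Psme4 and Psmg4. The one 5918 bp upstream of Psma3 stood at 67.1, 70.5, 64.6 and 67.5 in EDL, Quad, Sol and Dia. The one 5068 bp upstream of Psmd1 stood at 65.8, 64.0, 57.8 and 60.7. The region farthest from its gene among these, 50708 bp upstream of Psme4, varied from 7.89 in Quad to 62.5 in EDL and in Sol. A further 28 regions not annotated promoter-TSS were called in 1 list alone, 10 in Quad, 9 in EDL, 7 in Dia and 2 in Sol (48.3% of the 58, all such regions 50.5%). Of those in Quad, 2 lay within 1 kb of a start, 144 bp downstream in Psmb8 and 353 bp downstream in Psme4.

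Promoter letters were compared with those of 17492 protein-coding genes in windows of the same 300 bases. ETS letters, CCGGAA, stood in 20 of 41 proteasome promoters (48.8%, 34.3 to 63.5), against 20.9% of all promoters. The 31 ETS matches had a median position 31 bases upstream of the start, and 17 of them lay under a peak in all 4 lists. The share of matches under peaks was not computed over all promoters. Matches were counted on each strand, so overlapping ones, as in Psmd4, were counted apart. Of the ETS sites printed above, that of Psmd4 lay under a peak in EDL and Sol, that of Psmd11 in EDL, Sol and Dia, and the rest in all 4. Among genes with a promoter peak in every list, the mean promoter percentile had a median of 75.6 in 12 genes with ETS letters and 84.6 in 13 without. Within the deposited Quad promoter peaks 15 of 36 proteasome peaks held these letters (41.7%, 27.1 to 57.8), against 25.0% of 9251. The antioxidant response element stood in 6 of 41 promoters (14.6%, 6.88 to 28.4), no more often than in all promoters (14.8%), and in 9 of 36 Quad peaks (25.0%, 13.8 to 41.1; all 11.2%). Those 9 were Psma3, Psmb2, Psmb5, Psmb6, Psmc4, Psmc6, Psmd7, Psmd9 and Psme4. Of the 6 antioxidant response element sites printed above, those of Psmb6, Psmc6 and Psme4 lay under a peak in all 4 lists. The Psmb5 site lay under a peak in EDL, Quad and Dia and the Psmd9 site in EDL and Quad, where it overlaps a GC box, and the Psmd12 site lay under none.

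For the remaining motifs the interval in the promoter windows included the share of all promoters. The GC box, GGGCGG, stood in 23 of 41 (56.1%, 41.0 to 70.1; all 49.2%) and the NF-Y letters, CCAAT, in 14 of 41 (34.1%, 21.6 to 49.5; all 42.3%). In the Quad peaks the GC box stood in 19 of 36 (52.8%; all 62.9%) and CCAAT in 10 of 36 (27.8%; all 34.4%). The core of nuclear respiratory factor 1, GCGCANGCG, stood in 7 of 41 (17.1%, 8.53 to 31.3; all 9.63%), namely Psma2, Psma3, Psma4, Psmc4, Psmc5, Psmd14 and Psmg1. It was in none of the 36 Quad promoter peaks (0 to 9.64%; all 10.9%). Of its 10 matches in the windows 1, in Psmc5, lay under a peak in all 4 lists. Matches were counted on each strand, so overlapping ones in Psma2 and in Psmg1 were counted apart. In Quad the Psmc5 match lay under the peak given to Ftsj3 and the Psmg1 matches under the peak in exon 1, so these were not counted. Psmb8, Psmb10 and Psme2b held none of the 5 motifs. A match is a description of letters, not a binding event.

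**Figure D5:**
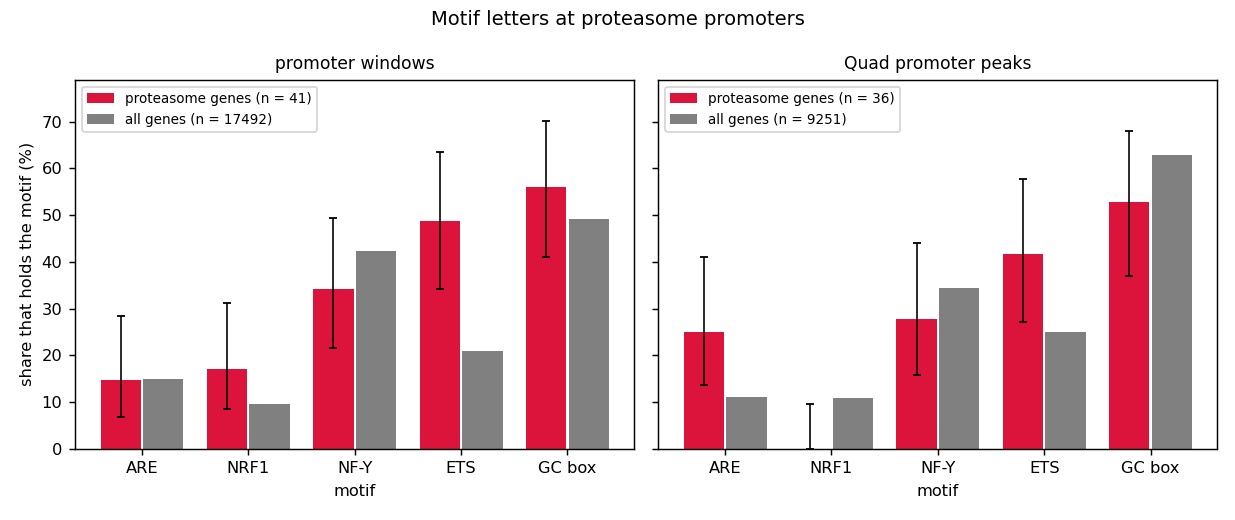
Share of promoters, in percent, that hold each of 5 motifs on either strand, for proteasome genes (red, with 95% Wilson intervals) and all genes (grey), in 300-base promoter windows (left) and in the deposited Quad promoter peaks (right). ARE is the antioxidant response element and NRF1 nuclear respiratory factor 1; the ETS bars are 48.8% and 20.9% in the windows.

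As a measure of likeness, other constitutive gene families were set beside the proteasome. Cytosolic ribosomal protein genes (97) had a promoter-TSS peak in all 4 lists in 72 cases (74.2%, 64.7 to 81.9), and mitochondrial ones (78) in 33 (42.3%, 32.0 to 53.4). By position the shares were 83.5% (74.9 to 89.6) and 76.9% (66.4 to 84.9), and both intervals overlapped that of the proteasome genes. The median percentile of the cytosolic ribosomal genes was 84.0 in EDL and 85.1 in Quad, with 82.7 in Sol and 80.0 in Dia, and that of the mitochondrial ones 67.1, 73.1, 62.5 and 69.6. The proteasome medians lay between them in all 4 lists.

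Of 23 further proteasome and ubiquitin pathway genes, 21 had a promoter peak in EDL and 21 in Quad, with 20 in Sol and 19 in Dia, and 17 had one in all 4. Nfe2l1, the transcription factor that restores proteasome genes when the proteasome is inhibited, had one of the strongest promoters, at 99.8 in EDL and 99.8 in Quad, with 99.8 in Sol and 99.7 in Dia. Nfe2l2 stood at 98.7, 99.3, 98.6 and 96.7. Vcp, the ATPase that extracts ubiquitinated proteins and hands them to the proteasome, was at 98.9, 98.8, 98.5 and 98.8. Pomp, which guides the maturation of the core, was lower, at 51.6, 66.6, 44.8 and 44.1. Adrm1, a ubiquitin receptor of the cap, was at 85.0, 96.4, 92.0 and 91.1. Ubb, a polyubiquitin gene, stood at 93.5, 92.3, 92.8 and 88.6.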

How the data were processed

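One pooled ATAC-seq library each of EDL, Quad, Sol and Dia was analysed. The authors aligned read pairs to mm10 with Bowtie2, kept 1 tag per position, called fixed-width peaks in each library with HOMER and annotated them to the nearest start. A shift of the read ends for Tn5 is not given in the sources used here. The deposited lists give a score per peak, a signal that counts tags scaled by library size. Tags were inferred from the step between scores, assuming HOMER's scale of 10 M tags (M, mega), and 95% Poisson intervals on them were turned into percentiles. Percentiles are mid-ranks within a list, and a gene takes its highest-scored promoter-TSS peak. Gene names and starts came from RefSeq on GRCm38.p6, and all 146 promoter peaks of the 49 genes lay within 100 bp of the distance it implies. Functions were tested on simulated lists. Analysis used Python 3.11.15 with numpy 2.4.6, pandas 2.3.3, scipy 1.17.1 and matplotlib 3.10.9.

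No test was run, since each group held 1 library. Named genes were those lacking a promoter-TSS peak in some list, the 4 highest and 4 lowest, the 6 with the widest range, and all immunoproteasome, activator, inhibitor and chaperone genes, or were needed to describe a role. The members and lists were chosen with earlier results of these data known. The name Paaf1 of the pathway list had no match. Alternatives were shorter lists, annotation by position, 50% reciprocal overlap and ranks among promoter peaks.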

Additional observations from a re-analysis of the deposited data

How the results depend on the processing

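Of 95 values recomputed under the alternatives, 80 stayed within their limits (1.5-fold for counts, the 95% interval otherwise) and 15 moved. No paired analysis was possible because each muscle had 1 library. Promoter genes per muscle numbered 33 to 38 in the 20000 highest-scored peaks of each list, 30 to 33 in the upper 50% by score and 43 to 44 by position. In the upper 50% the median percentile was 64.1 in EDL and 71.3 in Quad, 57.9 in Sol and 58.5 in Dia, and among promoter peaks it was 55.0, 56.6, 50.8 and 53.3. In the 20000 highest-scored peaks the Quad median was 71.0. These follow from ranking against fewer peaks. Spearman's rho of Sol and Dia was 0.83 in the upper 50%. Member peaks numbered 49 in Quad with 20000 peaks, and 41 in EDL, 49 in Quad and 40 in Dia in the upper 50%, since fewer peaks were kept. The share with the nuclear respiratory factor 1 motif was 0% in Quad promoter-TSS peaks of proteasome genes, and the cause was not tested. This share leaves out the Quad peaks given to Ftsj3 and to exon 1 of Psmg1, which lay over matches. The EDL and Sol counts under the other rankings, 25 and 23 genes, and the 8 shared regions away from every start, were chosen after seeing the data. Peaks near the 25 to 36 tags of the lowest calls have percentiles of low precision, and an absent peak does not show closed chromatin.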
